A study of Mus musculus with 12 samples.

Results

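The comparison described here set 4 arrays labelled KO/mock against 4 arrays labelled WT/mock, 8 of the 12 arrays of the series, over all 41345 probe sets of the deposited table. The arrays were chosen by their titles alone. The cells were the mouse embryonic stem (ES) cell line K3. WT/mock arrays came from clones 5-2 and 5-5 with the ERRb gene intact, and KO/mock arrays from clones 8-3 and 8-4 in which that gene was knocked out. Each clone gave 2 arrays that the labels call biological replicates. The labels do not say what the mock step was, and the sources used here do not give the position of the lesion. All cells shared growth in serum-free N2B27 medium with LIF and the GSK3 and MEK inhibitors CH99021 and PD0325901, and then 3 days in N2B27 with both inhibitors and doxycycline, a step for which the labels list no LIF. RNA was read on Affymetrix MoGene 2.0 ST whole-transcript arrays, and the values are log2 expression. The remaining 4 arrays, labelled KO/ERRb-wt (clones 12-1 and 12-3, knockout cells given a lentivirus expressing ERRb), entered the fit to estimate the spread and are otherwise given only as values.

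ERRb, the product of Esrrb, is an orphan nuclear receptor that binds DNA as a monomer or dimer at an extended half-site, the ERR response element. In mouse ES cells it belongs to the transcription factor network of the naive state, beside Klf4, Tbx3 and Nanog, and lies downstream of GSK3 inhibition. Its relatives ERRa and ERRg are best known for driving genes of mitochondrial energy metabolism.

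Esrrb itself was not lower on the arrays labelled KO/mock. Its single probe set read 7.38, 7.38, 7.39 and 7.38 on the WT/mock arrays and 7.48, 8.00, 7.74 and 7.41 on the KO/mock arrays. Every array labelled knockout thus lay above every array labelled wild type, and the log2 difference of 0.28 ± 0.13 (SE) did not pass (limma, adjusted p = 0.324). The 4 WT/mock values had an SD of 0.0041, and among the 14610 probe sets of mean log2 level 6 or more only 2 had a smaller one, where the median SD was 0.0961. Esrra and Esrrg differed by 0.02 and -0.07 (adjusted p = 0.953 and 0.784). The probe set may lie outside the lesion, in which case it checks nothing, so groups are called by their labels and the directions below compare arrays by label.

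Array medians lay between 5.00 and 5.07. ES cell markers were high on all 8 arrays: the mean over 10 of them was 9.89 to 10.05 on WT/mock and 10.00 to 10.01 on KO/mock arrays, with 1 of the 10 below level 6, and with Lin28a called higher (0.58, adjusted p = 0.0377, a call that ended without 8 of the 12 arrays, up to 0.108, and with the replicate number as a block, 0.0524) and Fgf4 lower. The 10 feeder fibroblast markers all lay below 6, with array means of 4.37 to 4.51 and 4.35 to 4.47 and none called. Array means of the trophoblast, mesoderm and endoderm, neuroectoderm and primitive endoderm lists lay between 5.19 and 5.84 on WT/mock and between 5.40 and 5.82 on KO/mock arrays; in these lists Lama1 was called higher and Gata4 and Sox1 lower (Sox1 adjusted p = 0.024, a call that ended without replicate 1 of clones 5-2, 5-5 or 8-3 or replicate 2 of clone 8-4, up to 0.0857), and their part in the results was not tested. Gata4 lies on chromosome 14, whose genes are described apart below, and it fell by 0.51. P-values measure the spread among these arrays, which come from 2 clones a group. Between the clones of one label, 0 probe sets were called for WT/mock (limma; 3113 at an unadjusted p under 0.05) and 2 of 41345 (0.00484%) for KO/mock (2920), and of the 608 genes whose call held below, 0 were called between clones. Each of these clone comparisons set 2 arrays against 2, so the low counts do not show that the clones agree. A difference between the labels cannot be told apart from whatever else distinguishes these 4 clones.

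At an adjusted p under 0.05, 1602 of 41345 probe sets (3.87%) were called, and 108 (0.261%) differed by at least 2-fold as well. Counted as genes, each by its brightest probe set with 1 gene symbol, 1238 of 22180 were called (5.58%). A call is said to have held where the gene was also called, in the same direction, in each of 12 fits that left out 1 array, which was so for 608 genes (2.74%). Leaving out 1 clone of 2 was harder: 312 of the 608 were also called in each of 4 such fits, and the count of probe sets fell to 531 without clone 5-2 and to 560 without 8-4. When each clone was reduced to the mean of its 2 arrays, 2 clones against 2, 10 probe sets were called. Chromosome 14 is described first and apart. On it, 271 of 797 genes were called lower (34.0%) and 2 higher (0.251%), against 498 lower (2.33%) and 467 higher (2.18%) of 21383 genes elsewhere.

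Genes of chromosome 14 were lower on the KO/mock arrays as a body. Over its 343 genes of mean log2 level 6 or more, 252 were called lower (73.5%) and 208 of these calls held (60.6%). Per array, the median deviation of these genes from the WT/mock mean, relative to genes of the other chromosomes, was -0.43, -0.43, -0.45 and -0.41 on the KO/mock arrays and between -0.01 and 0.01 on the WT/mock arrays. The groups did not come near each other, and the mean shift was -0.43 ± 0.02 (SD over 4 arrays), which puts KO/mock levels at 74.5% of those of WT/mock (exact two-sided permutation test over arrays, p = 0.0286, the smallest that 4 against 4 allow, and one that ignores clones). On the KO/ERRb-wt arrays the shift against the same WT/mock arrays was -0.44, -0.47, -0.47 and -0.46.

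**Figure D1:**
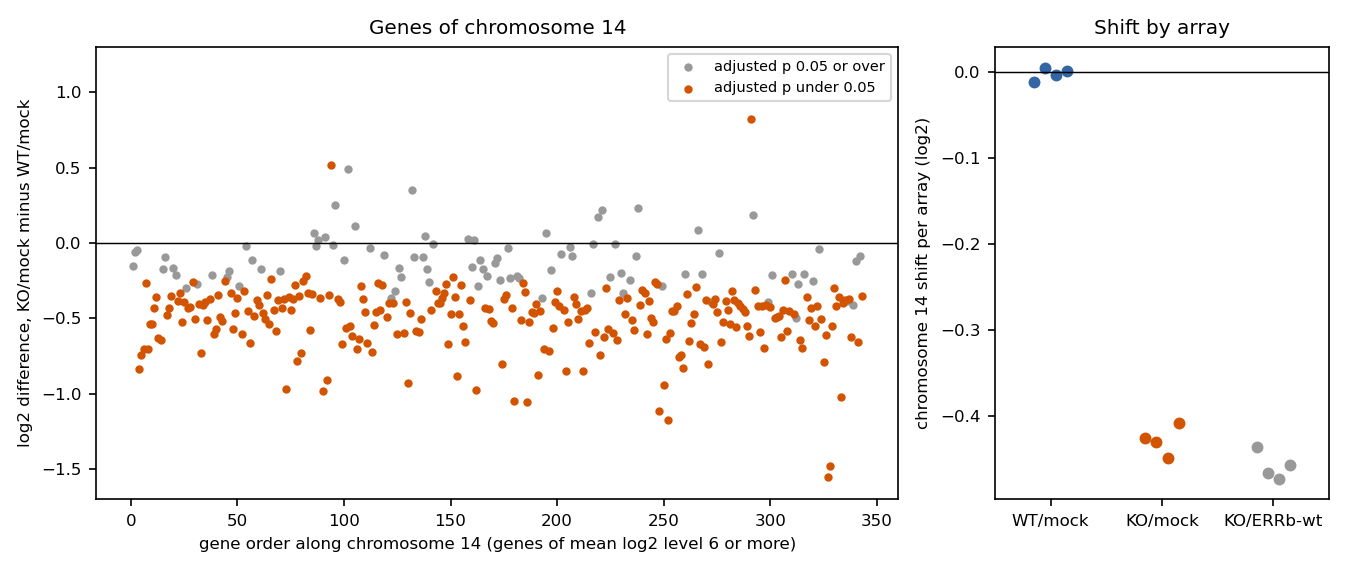
Left, each point is 1 of 343 chromosome 14 genes of mean log2 level 6 or more in gene order (x axis), with its log2 difference between KO/mock and WT/mock arrays (y axis); orange points were called at an adjusted p under 0.05. Right, each point is 1 array, with its chromosome 14 shift in log2 units against the WT/mock mean: the KO/mock arrays lie between -0.45 and -0.41 and the WT/mock arrays between -0.01 and 0.01.

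The shift ran along the whole chromosome. In 10 bins of 34 or 35 genes in RefSeq order (GRCm38.p6), the median difference relative to the other chromosomes lay between -0.37 (Mettl17 to Dhrs4) and -0.49 (Extl3 to Fndc3a). Even the bin with fewest genes below 0, from Smim4 to Tspan14, had 28 of 34. In windows of 15 neighbouring genes the median ranged from -0.66 (Clu to Tnfrsf10b, 13 called lower) to -0.14 (Prrxl1 to Cdhr1). Dim genes showed little of it: the median difference was -0.01 for 349 genes of mean level under 5 and -0.10 for 105 genes between 5 and 6. It was -0.39 for 137 genes between 6 and 8, -0.45 for 159 between 8 and 10 and -0.35 for 47 brighter genes, of which 75, 137 and 40 were called lower. On the other chromosomes the same level bins had 5.17%, 3.71% and 2.15% of genes called lower.

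Some chromosome 14 genes fell by far more than the shift. Uggt2, which re-glucosylates misfolded glycoproteins in the endoplasmic reticulum (ER), read 8.55, 8.71, 8.52 and 8.46 on WT/mock arrays and 6.88, 6.92, 7.11 and 7.10 on KO/mock arrays, which is -1.56 ± 0.08 (SE; limma, adjusted p = 2.42e-06). The groups were over 1 log2 unit apart at their nearest. Mbnl2, a splicing regulator, read 9.33, 9.41, 9.02 and 8.86 against 7.78, 7.90, 7.48 and 7.55 (-1.48 ± 0.14, adjusted p = 0.000295), and all 3 of its probe sets pointed down. Dpysl2, a microtubule-binding protein of growing axons, read 10.38, 10.29, 10.28 and 10.34 against 9.08, 9.26, 9.13 and 9.13 (-1.17 ± 0.07, adjusted p = 1.65e-05). Clu, the secreted chaperone clusterin, and Tgm1, a transglutaminase of epithelia, fell by 1.11 and 1.06. Rec8, the meiotic cohesin subunit, fell by 1.05 and Slc15a1, a peptide transporter, by 1.02. Anxa8, Slc7a8, Phf7, Ptk2b, Cfap20dc, Armh4, Shld2 and Mmp14 completed the 15 largest held decreases, at -0.98 to -0.88; among them Slc7a8 imports neutral amino acids, Ptk2b is a calcium-responsive tyrosine kinase, Shld2 acts in repair of DNA breaks and Mmp14 is a membrane-bound matrix protease. In each of these 15 genes the 4 arrays of one label lay clear of the 4 of the other, which the rule for naming them required, and each call also stood without any single clone.

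By function, the chromosome 14 calls reached many basic processes. All 4 measured ER glycoprotein folding genes on the chromosome were called lower and 2 held, Uggt2 and Ero1a, an oxidase that forms disulphide bonds, at -0.64. So were 4 of 6 proteasome subunit genes; Psmb5, a catalytic subunit, fell by 0.38 and Psmd6 by 0.36. The background for these counts is the 73.5% of chromosome 14 genes at level 6 or more called lower, so neither count stands apart from the chromosome as a whole. Chromatin regulators called lower included Tasor of the retroelement-silencing HUSH complex (-0.45), Zmym2 (-0.45), the remodellers Chd8 (-0.40) and Pbrm1 (-0.38), the deubiquitinase Bap1 (-0.36) and the methyltransferase Setdb2 (-0.43). Among factors that act in ES cells, Klf5 fell by 0.45 and Zfp219 by 0.45. The mitochondrial iron importer Slc25a37 fell by 0.83, the succinyl-CoA ligase subunit Sucla2 by 0.44, the squalene synthase Fdft1 by 0.37 and the cathepsin Ctsb by 0.47. In signalling, the Wnt receptor Fzd3 fell by 0.76, the death receptor Tnfrsf10b by 0.65 and the kinase Mapk8 by 0.36. The LIM protein Ajuba fell by 0.66, the basement membrane protein Nid2 by 0.43 and the germline Piwi gene Piwil2 by 0.67. Calls that ended without a clone were those of Psmd6 and Setdb2 (without any of the 4, adjusted p = 0.0507 to 0.0779 and 0.0541 to 0.0789), Zmym2 (without 5-2, 0.0581), Bap1 (without 8-4, 0.0789), and Mapk8 and Piwil2 (without 5-2, 0.0601 and 0.081; without 8-4, 0.0727 and 0.122).

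A minority of well-measured chromosome 14 genes showed no such difference. Hnrnpc, a nuclear RNA-binding protein, read 11.26, 11.31, 11.36 and 11.37 on WT/mock and 11.31, 11.31, 11.27 and 11.37 on KO/mock arrays (-0.01 ± 0.05, adjusted p = 0.97). The splicing factor Acin1 differed by 0.02 ± 0.06, and the poly(A)-binding protein Pabpn1 by -0.12 ± 0.05. The ribosomal protein gene Rpl15 differed by -0.10 ± 0.05, the telomerase inhibitor Pinx1 by -0.08 ± 0.09 and the zinc importer Slc39a14 by 0.08 ± 0.09; neither these nor Dhrs4, Ggact and Zic2, at -0.10, -0.09 and -0.12, were called. Bmp4, a secreted ligand of the BMP pathway, read 10.02, 10.00, 10.04 and 10.10 against 9.94, 9.75, 9.98 and 10.34 (-0.04 ± 0.12, adjusted p = 0.936), while its KO/ERRb-wt mean was 8.54. These 10 genes are the protein-coding ones of mean level 8 or more nearest to 0, so their values are a description. The 2 genes called higher were 1700108F19Rik, a cDNA gene named here after its values were seen, at 0.82 ± 0.11 (limma, adjusted p = 0.00141), and Fam25c at 0.52 ± 0.11 (adjusted p = 0.0265). The Fam25c call ended when either array of clone 5-2 or 8-4, or replicate 1 of clone 8-3, was left out (adjusted p = 0.0537 to 0.0874), and without clone 5-2 or 8-4 (0.241 and 0.251).

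Outside chromosome 14 the calls were even in direction. Of 21383 genes, 186 held calls were higher (0.87%) and 202 lower (0.945%), and 80 and 77 of them also stood without any single clone. The median called difference was 0.40 for higher and -0.44 for lower genes, and 15 called genes in each direction differed by at least 2-fold. Chromosome medians were taken over genes of mean level 6 or more, relative to the median of such genes outside chromosome 14. For each numbered chromosome other than 14, and for X, they lay between -0.03 and 0.02. Chromosome 19 had 24 genes called higher and 3 lower, the most uneven count among those chromosomes, with a relative median of 0.01.

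Next after chromosome 14, the lowest run of neighbours was on the X chromosome. From Clcn5 to Was, 15 neighbouring genes of level 6 or more had a median difference of -0.33 relative to the other chromosomes; 14 lay below 0, 9 were called lower and 6 of these held. The lowest window on any chromosome other than 14 and X was -0.22 (chromosome 12, Pqlc3 to Iah1) and the highest was 0.17 (chromosome 7, Zfp524 to Zik1), of 9047 windows outside chromosome 14. Was, the actin-nucleation promoter of blood cells, read 6.60, 6.47, 6.79 and 6.59 on WT/mock arrays and 5.37, 5.32, 5.61 and 5.44 on KO/mock arrays (-1.18 ± 0.08, SE; limma, adjusted p = 6.7e-05). Clcn5, an endosomal chloride-proton exchanger, fell by 1.00, the tubulin deacetylase Hdac6 by 0.76 and the membrane protein Praf2 by 0.54. Gpkow and Otud5 fell by 0.39 and 0.27, and their calls ended without clone 5-2 (adjusted p = 0.0524) and without clones 5-5, 8-3 or 8-4 (0.0691 to 0.0793). On KO/ERRb-wt arrays the means of Was and Clcn5 were 6.59 and 7.80, beside 6.61 and 8.03 on WT/mock arrays. The window was picked by this contrast and has no test of its own. Inside it, Pim2 differed by 0.05 and Plp2 by -0.14, neither called.

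On the Y chromosome 3 genes reached level 6. Uty, a histone demethylase relative, read 6.58 and 6.49 on clone 5-2, 7.37 and 7.28 on clone 5-5, and 8.12, 8.30, 8.25 and 8.37 on the KO/mock arrays. It rose by 1.33 ± 0.19 (SE; limma, adjusted p = 0.00221), the largest held increase outside chromosome 14 among the protein-coding genes that the rule can name, and the WT/mock clones differed from each other on both arrays. Uba1y rose by 0.66 (adjusted p = 0.0311), a call that ended without either clone 5-2 array, either clone 8-3 array or clone 8-4 replicate 1 (0.0603 to 0.101) and without clone 5-2, 8-3 or 8-4 (0.134 to 0.159), and Eif2s3y differed by 0.37 ± 0.33 and was not called. Eif2s3y read 5.67 and 5.97 on clone 5-2 and 7.10 and 6.91 on clone 5-5. On the KO/mock clones it read 7.04 and 7.28 (8-3) and 6.31 and 6.49 (8-4). All 3 genes read lowest on clone 5-2.

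**Figure D2:**
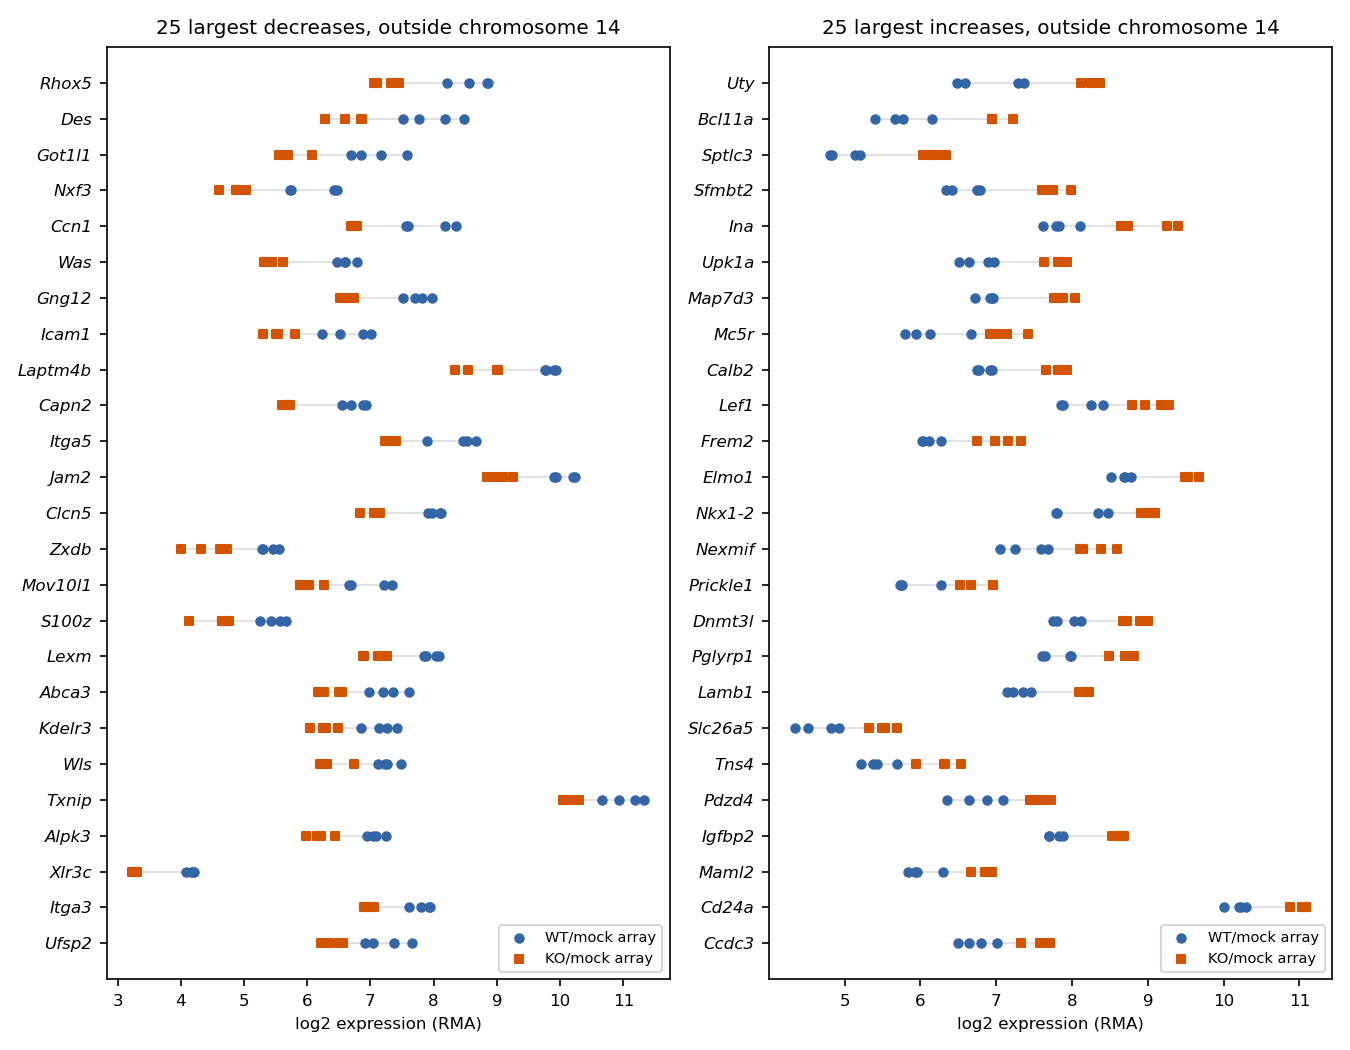
Log2 expression (x axis) of the 25 largest held decreases (left) and 25 largest held increases (right) outside chromosome 14, 1 gene a row; blue circles are the 4 WT/mock arrays and orange squares the 4 KO/mock arrays. The rule required groups that do not overlap; the nearest arrays of the labels read 6.66 and 6.91 for Mc5r, a narrow gap, and 6.47 and 5.61 for Was, a wide one.

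To describe the changed genes by what they do, 39 function lists and 77 families defined by symbol were counted, chromosome 14 members apart. The background is the 4.51% of genes outside chromosome 14 that were called, or 8.53% of those at level 6 or more. Lists and families were written with earlier results of these data known. A share above the background therefore describes the list and tests nothing. Medians of the function lists, over members of all levels, lay between -0.17 (cholesterol synthesis) and 0.08 (ES cell network genes). The -0.43 of chromosome 14 is an unlike measure, as it covers genes of level 6 or more and is relative to the other chromosomes. Every function list had at least 1 member called, and 15 of 77 families had none. The counts changed little with scaling: centring each array on its median moved the median difference of genes outside chromosome 14 from 0.01 to -0.00, and quantile normalization to -0.00.

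**Figure D3:**
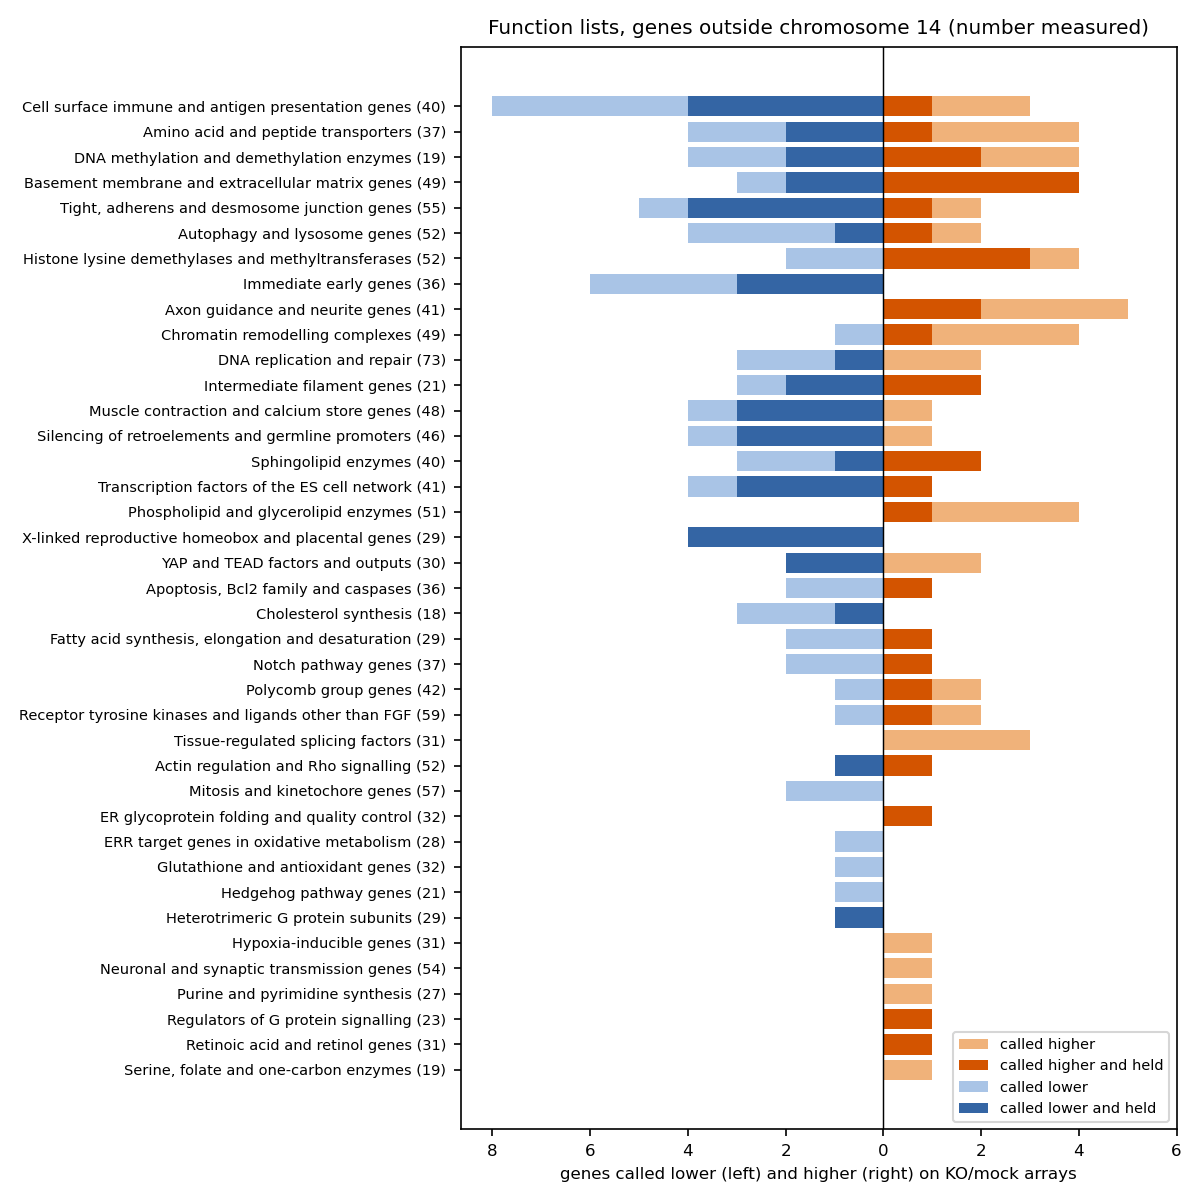
Bars give the number of genes called higher (right, orange) and lower (left, blue) on KO/mock arrays in each of 39 function lists outside chromosome 14, with the number measured in parentheses; the darker part is the calls that held in each fit leaving out 1 array. Cell surface immune genes have the longest bar to the left, 8 of 40, and axon guidance genes the longest to the right, 5 of 41.

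Among adhesion receptors, junction proteins and matrix genes, most members did not pass, and the list medians lay between -0.05 and 0.01. Of 29 integrin genes, 4 were called (13.8%), all lower. Itga5, the fibronectin receptor subunit, read 8.67, 8.53, 8.47 and 7.89 on WT/mock and 7.36, 7.40, 7.28 and 7.24 on KO/mock arrays (-1.08 ± 0.18, SE; limma, adjusted p = 0.0056), and Itga3, a laminin receptor subunit, read 7.93, 7.94, 7.80 and 7.61 against 6.91, 6.96, 7.06 and 6.99 (-0.84 ± 0.08, adjusted p = 0.000253). In both genes the arrays of the labels stood apart, which the rule for naming the largest decreases required. The laminin receptor genes Itgb4 and Itga6 fell by 0.33 and 0.26; the first call was lost (adjusted p = 0.0614) with WT/mock clone 5-2 replicate 1 left out and the second without any of 10 arrays, all but WT/mock clone 5-5 replicate 2 and KO/ERRb-wt clone 12-3 replicate 1 (up to 0.14). Both also ended without clone 5-2, 8-3 or 8-4 (0.0762 to 0.295), and that of Itga6 with the replicate number as a block (0.0599). Centring or quantile normalization gave 5 lower calls in this family. Among 55 junction genes 7 were called (12.7%), 2 higher and 5 lower. Jam2, a junctional adhesion molecule abundant in ES cells, read 9.90, 9.93, 10.21 and 10.23 against 8.99, 8.84, 9.09 and 9.25 (-1.02 ± 0.11). The tight-junction gene Ocln fell by 0.59, the connexin Gjb5 by 0.57 and the desmosomal cadherin Dsg2 by 0.50 (1 of its 2 probe sets pointed down), while Upk1a, a tetraspanin of urothelium, rose by 1.06 ± 0.11. In the matrix list 7 of 49 were called (14.3%), 4 higher and 3 lower. Lamb1 read 7.35, 7.22, 7.14 and 7.46 against 8.13, 8.16, 8.22 and 8.10 (0.86 ± 0.09), Lama1 rose by 0.58, the basement membrane protein Frem2 by 0.94 and Fbln1 by 0.39. Npnt, an integrin ligand, fell by 0.47 and the proteoglycan Agrn by 0.31. Without clone 5-2 the calls of Itga5, Dsg2, Lama1, Frem2 and Agrn ended (adjusted p = 0.0879, 0.0559, 0.0677, 0.0524 and 0.06), without 8-4 those of Itga5 and Agrn (0.0789 and 0.0731) and without 8-3 that of Lama1 (0.0578).

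Cytoskeletal genes moved in both directions within 1 family. Of 21 intermediate filament genes, 5 were called (23.8%), 2 higher and 3 lower. Des, the filament protein of muscle, read 8.17, 8.47, 7.77 and 7.51 on WT/mock and 6.87, 6.86, 6.29 and 6.60 on KO/mock arrays (-1.33 ± 0.19, SE; limma, adjusted p = 0.00267). Ina, a neuronal filament protein, read 7.83, 7.61, 7.79 and 8.10 against 8.74, 8.64, 9.25 and 9.40 (1.17 ± 0.17, adjusted p = 0.00228). Neither gene's groups overlapped, which the rule for naming Des and Ina required. In Des clone 5-2 read higher than clone 5-5. Vim, the filament of mesenchymal and many cultured cells, rose by 0.57, and the epithelial keratin Krt18 fell by 0.61, with 1 of its 2 probe sets pointing down. Muscle and calcium store genes had 5 of 48 called (10.4%), 1 higher and 4 lower, among them Des, the calcium pump Atp2a3 (-0.63) and the tropomyosin Tpm1 (-0.46). Besides Was, the calpain protease Capn2 fell by 1.09 ± 0.10 and Alpk3, a kinase of muscle, by 0.88, while Elmo1, which activates Rac at the membrane, rose by 0.92 ± 0.08, the microtubule-associated Map7d3 by 0.99, the formin Fhod3 by 0.66 and the focal adhesion gene Tns4 by 0.85. Actin regulators as a list had 2 of 52 called (3.85%), below the background. Calls that ended without a clone were those of Vim and Tpm1 (without 5-2, adjusted p = 0.0698 and 0.0553; without 8-4, 0.0727 and 0.0573) and of Krt18 and Atp2a3 (without 8-4, 0.0681 and 0.125).

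Stress and immediate early genes were lower where called. Of 36, 6 were called (16.7%), all lower, and 15 had an unadjusted p under 0.05. Jun, an AP-1 subunit, read 7.35, 7.30, 7.20 and 7.32 on WT/mock and 6.62, 6.67, 6.82 and 6.56 on KO/mock arrays (-0.62 ± 0.07, SE; limma, adjusted p = 0.000687). Jund fell by 0.61 and Gadd45b, a stress-induced regulator of MAP kinases, by 0.80. Ccn1, a matricellular protein from the list of YAP outputs (4 of 30 called, 13.3%), read 8.17, 8.35, 7.56 and 7.60 against 6.71, 6.78, 6.69 and 6.73 (-1.19 ± 0.15, adjusted p = 0.00128). Clone 5-2 read higher than clone 5-5, and both lay above the KO/mock arrays, which the rule for naming Ccn1 required. Txnip, the thioredoxin-binding protein that restrains glucose uptake, fell by 0.89, and the MAP kinase phosphatase Dusp16 by 0.39. The calls of Jund and Gadd45b ended without clone 5-2 (adjusted p = 0.0937 and 0.138), that of Gadd45b also without 8-4 (0.164), and that of Dusp16 without either (0.0928 and 0.0762).

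In signalling, the calls fell on single components, and change of whole pathways was not tested. The G protein gamma subunit Gng12 read 7.70, 7.98, 7.81 and 7.52 on WT/mock and 6.62, 6.74, 6.59 and 6.52 on KO/mock arrays (-1.14 ± 0.14, SE; limma, adjusted p = 0.000908), the 1 call among 29 G protein subunit genes (3.45%). Wls, the carrier that Wnt proteins need for secretion, fell by 0.89 ± 0.13. Lef1, a nuclear partner of beta-catenin, read 7.88, 7.85, 8.25 and 8.41 against 8.96, 8.79, 9.18 and 9.28 (0.96 ± 0.14, adjusted p = 0.00234), with clone 5-5 nearer the KO/mock arrays than clone 5-2. Prickle1, of planar cell polarity, rose by 0.90, and of 28 Wnt and Frizzled genes 0 were called (limma; 7 at an unadjusted p under 0.05). Igfbp2, a secreted IGF-binding protein, rose by 0.84 ± 0.07 and the Notch coactivator Maml2 by 0.84 ± 0.10. In the FGF family, 2 of 25 were called (8.00%): the ligand Fgf4 fell by 0.35 and the receptor Fgfr2, at a low level, rose by 0.62. Axon guidance and neurite genes had 5 of 41 called (12.2%), all higher; Crmp1, a relative of Dpysl2, rose by 0.73 and the guidance ligand Slit2 by 0.78. The pro-apoptotic gene Bcl2l11 rose by 0.50. Without clone 8-4 the calls of Prickle1, Fgf4 and Fgfr2 ended (adjusted p = 0.0856, 0.0637 and 0.0908), without 5-2 that of Prickle1 (0.0928) and without 8-3 that of Fgfr2 (0.0737).

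Among 29 X-linked genes of the reproductive homeobox, testis and placental families, 4 were called (13.8%), all lower, and all held; the median over the list was -0.03. Rhox5, a homeobox gene of placenta and testis that ES cells express, read 8.22, 8.56, 8.87 and 8.84 on WT/mock and 7.11, 7.05, 7.33 and 7.45 on KO/mock arrays, a 2.61-fold decrease (-1.38 ± 0.15, SE; limma, adjusted p = 0.000448). It was the 1 gene called among 10 Rhox genes. Nxf3, a tissue-specific RNA export factor, read 5.75, 5.74, 6.42 and 6.48 against 4.61, 4.91, 5.03 and 4.87 (-1.24 ± 0.17). Xlr3c and Taf7l, a testis form of a TFIID subunit, lay below 5 on all arrays and fell by 0.88 and 0.67. Genes that silence retroelements and germline promoters had 5 of 46 called (10.9%), 1 higher and 4 lower, among them the autosomal helicase gene Mov10l1 of the piRNA pathway (-0.96 ± 0.15). The calls of Taf7l ended without clone 5-2 or 8-4 (adjusted p = 0.0746 and 0.0727) and that of Mov10l1 without 8-4 (0.0675).

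Transcription and chromatin regulators were called in both directions. Bcl11a, a zinc finger repressor of the BAF and NuRD complexes, read 6.15, 5.40, 5.67 and 5.77 on WT/mock and 6.95, 6.95, 6.95 and 7.22 on KO/mock arrays (1.27 ± 0.15, SE; limma, adjusted p = 0.000728), although 1 of its 2 probe sets did not point up. DNA methylation and demethylation genes had 8 of 19 called (42.1%), 4 in each direction. Dnmt3l, the cofactor of de novo methyltransferases, read 7.81, 7.75, 8.12 and 8.03 against 8.73, 8.67, 9.01 and 8.90 (0.90 ± 0.10), Dnmt3b rose by 0.66 and Zfp57, which keeps imprints methylated, fell by 0.44. Histone lysine demethylases and methyltransferases had 6 of 52 called (11.5%), 4 higher and 2 lower; beside Uty, the methyltransferases Smyd2 and Nsd2 rose by 0.60 and 0.33. Among 41 genes listed for the ES cell network 5 were called (12.2%), 1 higher and 4 lower. Of those that held, Klf4 fell by 0.47, Tbx3 by 0.42 and the ligand gene Fgf4 by 0.35, and Dppa3 rose by 0.78. Homeobox genes outside the Hox and Rhox groups had 3 of 71 called (4.23%), Nkx1-2 at 0.91, Meis2 at -0.81 and Nkx6-3 at -0.77. Mitf, the melanocyte and lysosome factor, rose by 0.61, Sox4 by 0.65 and the deubiquitinase Usp44 by 0.53, while the repressor Zbtb32 fell by 0.67. In the 394 Zfp genes outside chromosome 14, 10 were called higher and 10 lower (5.08%). The splicing factors Hnrnph1 and Hnrnpr rose by 0.38 and 0.41, 2 of 28 hnRNP and SR genes (7.14%). Without clone 5-2 the calls of Dnmt3b, Nsd2, Dppa3, Sox4, Hnrnph1 and Hnrnpr ended (adjusted p = 0.126, 0.0638, 0.0559, 0.0665, 0.0574 and 0.0779), and without 8-4 those of Dnmt3b, Nsd2, Fgf4, Meis2, Nkx1-2, Nkx6-3 and Sox4 (0.0571, 0.119, 0.0637, 0.0552, 0.0706, 0.0774 and 0.0779); Nsd2 ended without 5-5 too (0.057), and Nkx6-3 and Sox4 without 8-3 (0.058 and 0.0931).

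Surface and antigen presentation genes had the largest count of any function list, 11 of 40 (27.5%), 3 higher and 8 lower, with 5 held. Icam1, an integrin ligand on immune-activated cells, read 6.52, 7.01, 6.88 and 6.23 on WT/mock and 5.54, 5.81, 5.50 and 5.30 on KO/mock arrays (-1.12 ± 0.17, SE; limma, adjusted p = 0.00307). The tetraspanins Cd63 and Cd9 fell by 0.40 and 0.37, and Tapbp, which loads peptides on class I molecules, by 0.41. Further genes of class I presentation, named here after their values were seen, were also called lower: B2m, its light chain, read 9.22, 9.25, 8.93 and 8.99 against 8.74, 8.78, 8.00 and 8.22 (-0.66, adjusted p = 0.0397), H2-K1 differed by -0.63 (adjusted p = 0.0277) and the peptide pump Tap1 by -0.48 (adjusted p = 0.0292). These 3 calls were fragile. Either array of clone 5-2 and either of clone 8-4 ended each of them when left out (adjusted p = 0.0661 to 0.117), as did WT/mock clone 5-5 replicate 1 for B2m and H2-K1, KO/mock clone 8-3 replicate 1 for H2-K1 and Tap1, and WT/mock clone 5-5 replicate 2 and each KO/ERRb-wt array for B2m; without clone 5-2 and 8-4 their adjusted p was 0.185 to 0.328. With the replicate number as a block the adjusted p of B2m was 0.0577. Cd24a, a glycosylated surface protein, went the other way, from 10.00, 10.23, 10.20 and 10.30 to 11.07, 11.09, 10.88 and 11.03 (0.84 ± 0.09, adjusted p = 0.000447). Without clone 5-2 the calls of Cd63, Cd9 and Tapbp ended (0.0539, 0.122 and 0.0809), and without 8-4 those of Cd9 and Tapbp (0.105 and 0.133).

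Sugar-transferring enzymes were called in both directions, 9 of 98 (9.18%). The sialyltransferases St6gal1 and St8sia6 rose by 0.79 ± 0.08 and 0.71 ± 0.12. The N-acetylgalactosaminyltransferases B4galnt1 and B4galnt2 fell by 0.66 and 0.71 and Mgat5b by 0.31. The calls of St8sia6, B4galnt1, B4galnt2 and Mgat5b ended without clone 8-4 (adjusted p = 0.0921, 0.0986, 0.0875 and 0.0586), those of B4galnt2 and Mgat5b also without 5-2 (0.115 and 0.144) and Mgat5b without 8-3 (0.0928). In sphingolipid metabolism 5 of 40 were called (12.5%). Sptlc3, 1 subunit of the entry enzyme serine palmitoyltransferase, read 4.80, 5.13, 4.83 and 5.20 on WT/mock and 6.34, 6.22, 6.03 and 6.16 on KO/mock arrays (1.19 ± 0.11 SE, limma adjusted p = 0.000253). It lay below level 6 on the WT/mock arrays. The sphingosine phosphate phosphatase Sgpp2 rose by 0.59 (adjusted p = 0.128 without clone 5-2 and 0.0737 without 8-3). Sgpp2 was dim, with means of 4.78 on WT/mock and 5.37 on KO/mock arrays. The lysosomal hexosaminidase Hexa fell by 0.67 (0.116 without 5-2 and 0.0806 without 8-4). In cholesterol synthesis 3 of 18 were called (16.7%), all lower, 10 had an unadjusted p under 0.05, and 17 of the 18 lay below 0. Its held member Insig1, the sterol-sensing brake on the pathway, read 10.65, 10.61, 10.60 and 10.58 against 10.14, 10.13, 10.14 and 10.12 (-0.48 ± 0.05).

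Genes of endosomes and of membrane transport were called in both directions. Laptm4b, a lysosomal membrane protein, read 9.91, 9.94, 9.77 and 9.77 on WT/mock and 9.00, 9.02, 8.34 and 8.54 on KO/mock arrays (-1.12 ± 0.13, SE; limma, adjusted p = 0.000783). The lipid pump Abca3 fell by 0.91 and Kdelr3, which returns ER proteins from the Golgi, by 0.90. Ion-pumping ATPases had 7 of 62 called (11.3%), all lower; the sodium pump subunit Atp1b1 fell by 0.50 and the proton pump subunit Atp6v0e2 by 0.47, calls that ended without clone 5-2 (adjusted p = 0.0507 and 0.0671) or 8-4 (0.0637 and 0.0755). Solute carriers had 24 of 366 called (6.56%), 15 higher and 9 lower. The polyamine transporter Slc18b1 rose by 0.67, the anion transporter family member Slc26a5 by 0.86, at a level below 6, and the glutamate transporter Slc1a3 by 0.61 (adjusted p = 0.101 without clone 5-2). The amino acid transporter Slc43a1 fell by 0.52 and the peptide transporter Slc15a2, a dim gene, by 0.39.

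Several large families and the metabolic genes of the ERR receptors stayed near the background or below it. The collagens (44 genes), histone genes (40), cytosolic ribosomal proteins (61), proteasome subunits outside chromosome 14 (43), aminoacyl-tRNA synthetases (31), kinesins (37), claudins (30), protocadherins (31) and interleukins with their receptors (73) had 0 genes called (limma), with 1, 8, 9, 10, 9, 5, 3, 2 and 6 at an unadjusted p under 0.05. Of 28 ERR target genes of oxidative metabolism outside chromosome 14, 1 was called (3.57%), Dld at -0.35 (adjusted p = 0.0143, 0.136 without clone 5-2, 0.108 without 8-4 and 0.0501 with replicate 1 of WT/mock clone 5-2 left out), and the median difference was -0.01. Subunits of respiratory complexes had 3 of 97 called (3.09%). A p that misses the threshold does not show that these genes did not differ.

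Other held changes among the 25 largest in a direction had no partner in the lists. Calb2, a calcium-binding protein of neurons, read 6.75, 6.78, 6.92 and 6.95 on WT/mock and 7.82, 7.92, 7.65 and 7.93 on KO/mock arrays (0.98 ± 0.10, SE; limma, adjusted p = 0.000362). Pglyrp1, a peptidoglycan-binding protein, rose by 0.89, Ccdc3 by 0.84, the melanocortin receptor gene Mc5r by 0.99, Nexmif by 0.91 and Pdzd4 by 0.85. Got1l1, a relative of the aspartate aminotransferases, read 7.16, 7.57, 6.85 and 6.69 against 5.66, 6.08, 5.56 and 5.70 (-1.32 ± 0.17, adjusted p = 0.00142). Lexm, S100z, Zxdb and the peptidase gene Ufsp2 fell by 0.92, 0.93, 0.98 and 0.84. Of these, S100z and Zxdb were dim and lay below level 6 on every WT/mock and KO/mock array. Without clone 5-2 the calls of Mc5r and Zxdb ended (adjusted p = 0.0893 and 0.107), and without 8-4 those of Mc5r, Nexmif, Pdzd4 and Ufsp2 (0.0745, 0.0601, 0.0726 and 0.0935).

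Sfmbt2, an imprinted Polycomb-related gene on chromosome 2, holds in an intron a large cluster of microRNA genes, and calls in both were higher on the KO/mock arrays. Sfmbt2 read 6.34, 6.41, 6.78 and 6.75 on WT/mock and 7.61, 7.67, 7.75 and 7.99 on KO/mock arrays (1.18 ± 0.14, SE; limma, adjusted p = 0.00072). Of 22 microRNA genes measured inside it, 6 were called higher and 5 held, 20 lay above 0, and the median difference was 0.40; over all 463 microRNA genes outside chromosome 14, 11 were called higher (2.38%) and 2 lower (0.432%). Mir669k read 7.41, 7.79, 7.74 and 7.84 against 8.76, 8.76, 8.87 and 9.16 (1.19 ± 0.13), and Mir669j, Mir669g and Mir669i rose by 1.24, 1.17 and 1.14 and Mir466b-2 by 0.56. The calls of Mir669g and Mir466b-2 ended without clone 5-2 and 8-4 (adjusted p = 0.0566 and 0.0903). Mir669h rose by 0.76, a call that ended without WT/mock clone 5-2 replicate 1 or 2, clone 5-5 replicate 1 or any KO/mock array (0.0597 to 0.118) and without any clone (0.0899 to 0.181). Mir467c differed by -0.08 and was not called, at a level of 8.14. The array reads the labelled transcript at these positions, host intron included, and not the mature microRNA; the hairpins have near-identical copies that can share signal, so single members are uncertain.

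**Figure D4:**
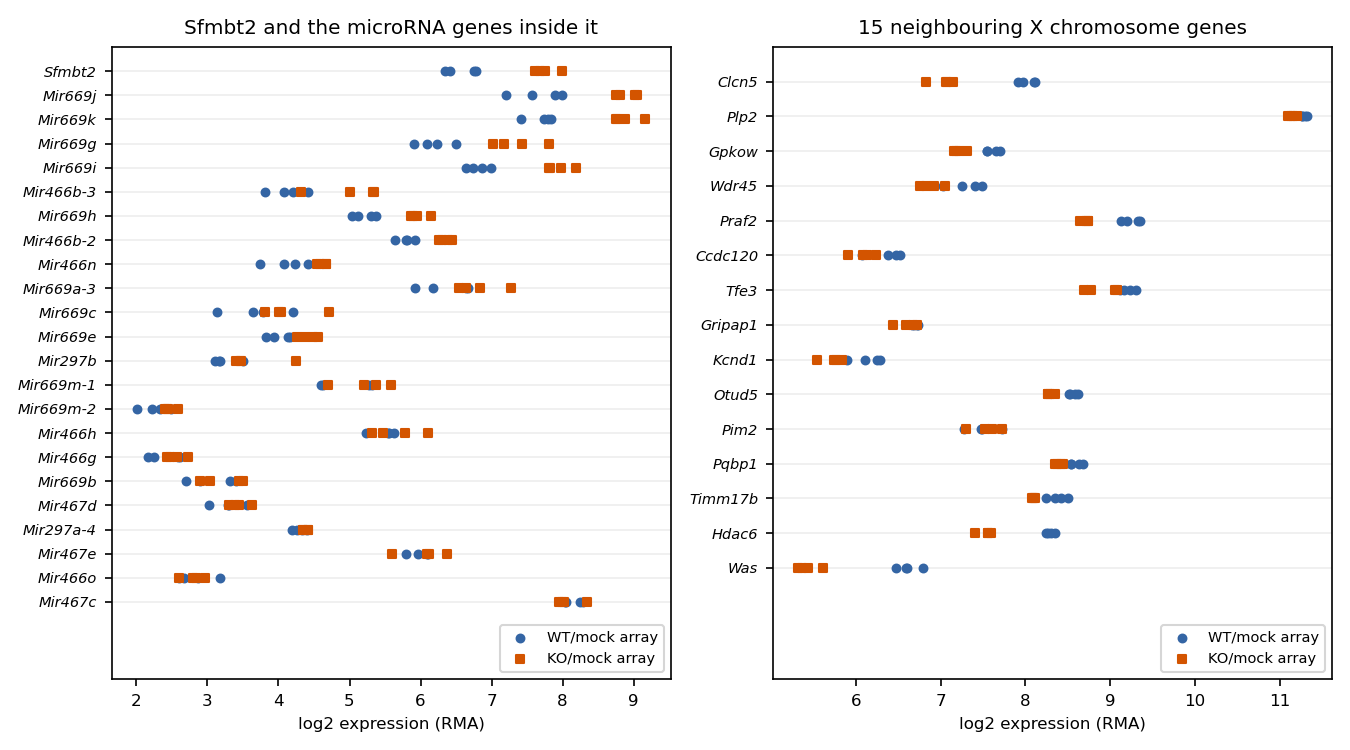
Log2 expression (x axis) of Sfmbt2 and the 22 microRNA genes inside it (left) and of the 15 X chromosome genes from Clcn5 to Was (right), 1 gene a row; blue circles are WT/mock and orange squares KO/mock arrays. Sfmbt2 and the 4 microRNA genes under it are clear of the WT/mock arrays, while most dim microRNA genes overlap. For Sfmbt2 the rule for naming it required groups that do not overlap.

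A second microRNA locus with calls was the X-linked cluster from Mir18b to Mir363, of which 2 of 5 genes were called and 1 held. Its genes are shown here by their mature RefSeq sequences (GRCm38.p6 table, 5 of 27 microRNA genes of both loci matched) with the seed, bases 2 to 8, in capitals.
miR-18b-5p: uAAGGUGCaucuagugcuguuag
miR-20b-5p: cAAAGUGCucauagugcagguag
miR-19b-3p: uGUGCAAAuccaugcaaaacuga
miR-92a-3p: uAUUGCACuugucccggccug
miR-363-3p: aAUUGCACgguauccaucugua
The last pair shares a seed, and the others have 1 each. All 5 genes lay above 0, with a median of 0.46. Mir18b rose by 0.68 ± 0.09 (limma, adjusted p = 0.00172) and held; Mir363 rose by 0.61 (adjusted p = 0.044), a call that ended without WT/mock clone 5-2 replicate 1, either clone 5-5 array, KO/mock clone 8-3 replicate 2, either clone 8-4 array or either KO/ERRb-wt clone 12-3 array (0.0539 to 0.14), without clone 5-2, 5-5 or 8-4 (0.116 to 0.3) and with the replicate number as a block (0.0632). Mir20b, Mir19b-2 and Mir92-2, all dim, differed by 0.46, 0.44 and 0.25 and were not called. Gpc3, a glypican gene near the cluster, read 6.69, 6.68, 6.72 and 6.68 on WT/mock and 7.36, 7.71, 7.44 and 7.48 on KO/mock arrays, and rose by 0.80 ± 0.07.

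ERR proteins bind the extended half-site TCAAGGTCA, which was sought on both strands in the 250 bases before the start of each gene with a RefSeq promoter entry (GRCm38.p6). It stood in 58 of 16990 genes (0.341%), in 4 of 395 called lower outside chromosome 14 (1.01%), in 1 of 362 called higher (0.276%) and in 0 of 200 called lower on chromosome 14. The core AAGGTCA, which the longer motif contains, stood in 709 of 16990 (4.17%), 20 of 395 lower (5.06%), 10 of 362 higher (2.76%) and 9 of 200 on chromosome 14 (4.50%). Among genes of mean level 6 or more, where most calls lie, the longer motif stood in 24 of 7800 (0.308%) and the core in 243 (3.12%). A match describes letters and shows no binding. The 5 genes with the longer motif, chosen after their values were seen, are shown with up to 60 bases on each side and the motif or its reverse complement in capitals, on the strand of the gene.
Msrb2, chr2:19371457-19371585 (+ strand): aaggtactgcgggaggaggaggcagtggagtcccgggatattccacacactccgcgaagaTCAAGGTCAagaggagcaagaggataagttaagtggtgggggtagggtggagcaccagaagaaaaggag
Psap, chr10:60277419-60277547 (+ strand): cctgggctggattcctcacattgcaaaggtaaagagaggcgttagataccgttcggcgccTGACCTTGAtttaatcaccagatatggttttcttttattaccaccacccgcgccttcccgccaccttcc
Zfp414, chr17:33628842-33628968 (+ strand): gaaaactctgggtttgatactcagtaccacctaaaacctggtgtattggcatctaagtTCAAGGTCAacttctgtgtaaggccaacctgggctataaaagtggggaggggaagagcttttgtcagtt
Polk, chr13:96519317-96519437 (- strand): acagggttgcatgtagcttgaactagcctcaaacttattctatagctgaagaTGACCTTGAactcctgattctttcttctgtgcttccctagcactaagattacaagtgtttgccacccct
Acsl6, chr11:54303597-54303725 (+ strand): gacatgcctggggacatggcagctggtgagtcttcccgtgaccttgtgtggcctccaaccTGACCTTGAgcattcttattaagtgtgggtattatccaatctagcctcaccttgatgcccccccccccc
Msrb2, a mitochondrial methionine sulfoxide reductase, read 7.36, 7.28, 7.58 and 7.87 on WT/mock and 8.30, 8.17, 8.50 and 8.39 on KO/mock arrays; it rose by 0.82 ± 0.13 (SE; limma, adjusted p = 0.0042), and the call held, but ended without clone 5-2 or 8-4 (0.0528 and 0.0704). Psap, the precursor of lysosomal saposins, fell by 0.50, Zfp414 by 0.32, the translesion polymerase gene Polk by 0.45 and the acyl-CoA synthetase gene Acsl6 by 0.41. None of these 4 decreases held: leaving out single arrays, either array of clone 5-2 or 8-4 among them for each gene, raised the adjusted p to as much as 0.098, 0.093, 0.121 and 0.146, and with the replicate number as a block it was 0.052 for Polk and 0.0627 for Acsl6.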

How the data were processed

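Expression was measured on 12 Affymetrix MoGene 2.0 ST arrays, of which 8 are compared here. The submitters' processing notes name RMA and Affymetrix Expression Console, with no version, for the log2 expression values that the authors deposited. They were used as deposited. Each probe set was tested with limma 3.58.1 (R 4.3.3, statmod 1.5.0) in a model of 3 groups over all 12 arrays, which share 1 estimate of the spread, with clone as a random block and Benjamini-Hochberg adjustment over 41345 probe sets. The estimated correlation within clones was 0.0286, and 1742 probe sets were called without the block against 1602 with it. The block thus changed the calls little over all probe sets. With dim probe sets left out, the estimated correlation was 0.172, so arrays of a clone cannot be taken as independent. Of the 41345 probe sets, 23521 carried 1 gene symbol in the platform annotation, 1814 several and 16010 none. Chromosomes and gene order came from RefSeq (GRCm38.p6). Scaling across arrays and the number of arrays limit the precision, and no counting depth exists for arrays.

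The members and lists were chosen with earlier results of these data known. Named genes are the 25 largest held increases and decreases outside chromosome 14 whose groups do not overlap, the 15 largest decreases, all called increases and the 10 genes nearest to no difference on it, and up to 5 held members of a list or family. Genes whose call did not hold were named after their values were seen. On simulated data for this contrast, with 100 of 41345 probe sets changed at each size, the test recovered 55% of log2 changes of 0.5 and 91% of changes of 1, with 8.75% false calls. The simulated arrays had independent noise and no clone effect. These shares therefore do not cover error from differences between clones.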

Additional observations from a re-analysis of the deposited data

Results flagged for a closer look

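Of 404 sets of 4 array values tested (each gene named, in each group), 13 held 1 array that stood far from the other 3 by Dixon's test at the 95% level, fewer than the about 1 in 20 that chance alone flags; none of these gaps was examined further. Among genes called lower or not called, Gata4 read 6.8421 on WT/mock clone 5-5 replicate 2, below 7.0497 to 7.0605 on the rest, and Esrra 7.0462 on clone 5-5 replicate 1, below 7.1634 to 7.1773. Klf4 read 9.2491 and Fdft1 11.6341 on KO/mock clone 8-3 replicate 2, above the others. Dld read 9.7258 on KO/mock clone 8-4 replicate 1, below 9.8878 to 9.9186. Among genes called higher, Bcl11a read 7.2187 on KO/mock clone 8-4 replicate 2, where the other KO/mock arrays read 6.9467 to 6.949. Hnrnpr read 9.4964 on that same array and 8.988 on WT/mock clone 5-5 replicate 1, both above the rest of their group. Smyd2 read 8.0608 on KO/mock clone 8-3 replicate 2, below the others. Prickle1 read 6.2652 on WT/mock clone 5-5 replicate 2, above 5.7326 to 5.7554. On WT/mock clone 5-5 replicate 1, Gpc3 read 6.7179 and 1700108F19Rik 7.2612, both the highest of their group. Lama1 read 6.5261 on WT/mock clone 5-2 replicate 2, below 6.8143 to 6.8727.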

How the results depend on the processing

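Calls depended on the clones. With each clone reduced to its mean, 10 probe sets were called, and 1 gene each higher outside chromosome 14, lower outside it and lower on it. Without clone 5-2 the counts were 531 probe sets and 101, 119 and 179 genes, and without 8-4 they were 560 and 129, 111 and 177. With 1 array left out, the counts ran from 888 to 1841 probe sets (lowest without WT/mock clone 5-2 replicate 1), and from 214 to 574, 236 to 585 and 231 to 269 genes. With only the 8 arrays in the fit, 261 genes were higher and 297 lower outside chromosome 14; a trended robust prior gave 802 higher, and leaving out dim probe sets 846. Over all genes, 516 were called at an adjusted p under 0.01, and 37 at an adjusted p under 0.05 with a log2 difference of at least 1. The chromosome 14 shift lay between -0.434 and -0.418 with 1 array left out, with an exact permutation p of 0.0571, the smallest that 3 against 4 allow. Replicate numbers were not taken to pair the arrays: deviations of arrays from different groups correlated between -0.07 and 0.19 over 24 pairs of the same number, not above 0.1 in every pair, and between -0.15 and 0.09 over 24 pairs of other numbers. The fit with the replicate block called 1365 probe sets and ended 6 calls of 232 genes named in the text or by the rule: Acsl6, B2m, Itga6, Lin28a, Mir363 and Polk. Without chromosome 14 probe sets, an alternative chosen after seeing the data, 1179 were called. Of the same 232, the mean of each clone left 2 called, Uggt2 and Bcl11a, and no alternative turned the direction of a named gene.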
